A study of Mus musculus with 9 samples.

Results

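The 10 genes described here are Nfe2l2, which encodes the transcription factor NRF2, and 9 genes widely used as readouts of NRF2 activity: Nqo1, Hmox1, Gclc, Gclm, Txnrd1, Srxn1, Slc7a11, Gsr and Prdx1. They were listed by symbol, not by their values, among the 45321 genes that the transcript tables cover, and all 10 were among the 14011 genes with enough counts to be tested. RNA sequencing was made of total CD4+ T cells from the spleens of C57BL/6 mice, isolated untouched, that is by removing other cells. Each group first spent 1 h with the vehicle DMSO or with Compound 10 at 12.5 µM, which the series design presents as an inhibitor directed at the NFAT:AP-1 complex. The cells then received either no stimulus or 10 nM PMA with 1 µM ionomycin for 2 h. Whether the unstimulated cells were also kept for those 2 h is not known here. If they were not, stimulation cannot be told apart from longer culture and longer exposure to vehicle or Compound 10. The unstimulated vehicle group had 2 libraries, the unstimulated Compound 10 group 2, the stimulated vehicle group 2 and the stimulated Compound 10 group 3. The mice carried no stated allele or transgene. Their age and sex, and any pooling of animals, are not stated in the labels. Nothing says that libraries of 1 group come from different mice or cultures. The p-values therefore reflect the spread among these samples alone, and that spread may be technical.

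NRF2 is a basic leucine zipper factor that is held low by KEAP1, an adaptor that brings NRF2 to a ubiquitin ligase of CUL3 and RBX1. Oxidants and electrophiles modify KEAP1, NRF2 then accumulates, pairs with small MAF proteins and binds antioxidant response elements, and BACH1 occupies the same elements as a repressor. The targets make glutathione (Gclc, Gclm), import the cystine it needs (Slc7a11) and regenerate glutathione and thioredoxin (Gsr, Txnrd1). They also remove peroxides (Prdx1), reduce overoxidized peroxiredoxins (Srxn1), degrade heme (Hmox1) and reduce quinones (Nqo1). NRF2 is regulated mainly as a protein, which RNA sequencing does not measure. PMA activates protein kinase C and ionomycin raises calcium, so that together they bypass the T cell receptor.

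The libraries held 10669821 to 21852830 estimated counts. Nuclear ribosomal RNA genes took 1.78% to 26.3% of them, most in replicate 2 of both vehicle groups (26.3% unstimulated and 13.8% stimulated). All 6 CD4 T cell markers were present, with a sum of 587 to 617 CPM (counts scaled to library size) in unstimulated vehicle libraries, 983 to 1106 in unstimulated Compound 10 libraries, 1375 to 1792 in stimulated vehicle libraries and 1760 to 1863 in stimulated Compound 10 libraries. With Compound 10, 4 of the 6 were called higher and 0 lower in unstimulated cells, and 4 higher and 1 lower in stimulated cells. The 5 natural killer cell markers summed to 4.26 to 5.91 CPM in unstimulated vehicle libraries and 10.2 to 12.2 in unstimulated Compound 10 libraries, where 1 of the 4 tested was called higher. They summed to 5.90 to 7.91 CPM in stimulated vehicle libraries and 17.7 to 23.8 in stimulated Compound 10 libraries, where 4 of the 4 tested were called higher. The 6 B cell markers summed to 37.3 to 58.8 CPM in unstimulated vehicle and 26.8 to 28.1 in unstimulated Compound 10 libraries. They summed to 19.7 to 46.9 CPM in stimulated vehicle and 26.4 to 50.8 in stimulated Compound 10 libraries. Of the 5 tested, 0 were called with Compound 10 in either state and 1 was called lower with stimulation in vehicle. The 12 monocyte, macrophage and dendritic cell markers summed to 3.94 to 8.89 CPM over all libraries, with Cd5l, Marco and C1qa at or near 0, Lyz2 at up to 5.33 CPM, and none called between vehicle and Compound 10. The part of these cells in the results below was not tested. In bulk RNA, fewer cells of a type and less RNA per cell cannot be told apart. CPM here are edgeR's counts per library size, from a gene's estimated counts and the library's total after TMM scaling. Fold changes are log2 values from edgeR's quasi-likelihood test with their standard error (SE), and a gene is called where its p, adjusted by Benjamini and Hochberg over the 14011 genes, is under 0.05.

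In vehicle, stimulation raised Srxn1, Hmox1, Txnrd1, Prdx1 and Nfe2l2 and lowered Gsr, which are 6 of the 10, where 28.1% of all tested genes were called, 14.4% higher and 13.8% lower. In stimulated cells, Compound 10 lowered Srxn1, Gclc and Hmox1 and raised Nfe2l2, which are 4 of the 10, where 23.1% of all tested genes were called, 11.7% higher and 11.4% lower. In unstimulated cells it raised Nfe2l2 and lowered Gclc, which are 2 of the 10, where 7.36% were called, 4.45% higher and 2.91% lower. Thus the gene for the factor and a gene for its classical target, Gclc, were called in opposite directions in both states. The median log2 change of the 10 was -0.30 for Compound 10 in stimulated cells, beside 0.00 over all tested genes, and -0.11 in unstimulated cells, beside -0.01. For stimulation in vehicle the median was 0.82, beside -0.05. Under Compound 10, stimulation raised 3 of the 10 (Srxn1, Hmox1 and Prdx1), with a median of 0.18 beside 0.00, where 21.8% of all tested genes were called, 11% higher and 10.8% lower. Each Compound 10 comparison shares a group of libraries with each stimulation comparison, so these are not independent of each other.

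**Figure D1:**
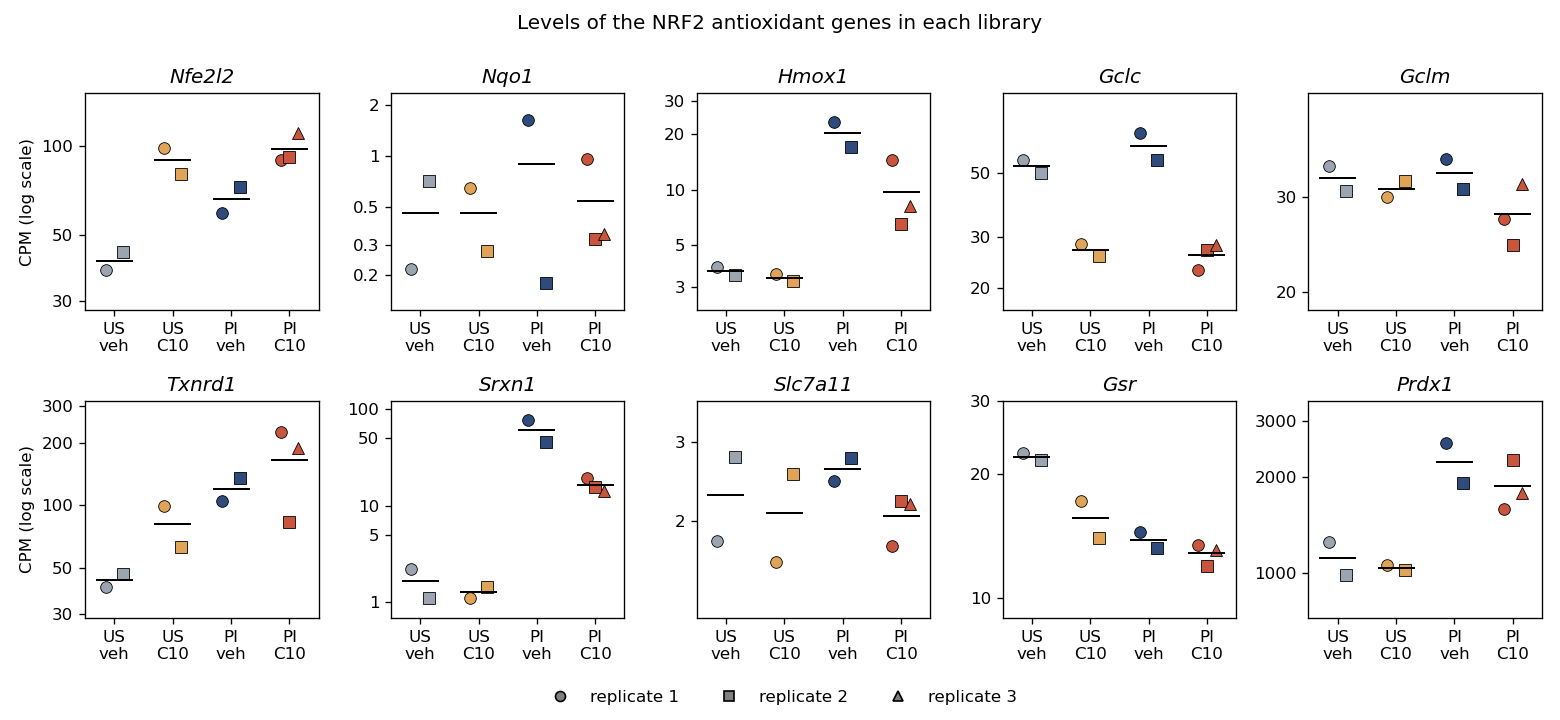
Level of each of the 10 genes in each of the 9 libraries, in CPM on a log axis, by group (US unstimulated, PI stimulated, veh vehicle, C10 Compound 10); points are libraries and bars group means. Srxn1 lies at 1.10 to 2.23 CPM in the 4 unstimulated libraries and at 14.3 to 76.9 in the stimulated ones, and Gclc lies at 23.1 to 28.4 in all 5 Compound 10 libraries and at 50.01 to 68.7 in all 4 vehicle libraries.

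The promoter letters are shown for 4 members, picked by both their calls and their words. Srxn1 and Prdx1 rose with stimulation in both vehicle and Compound 10 and hold words for both AP-1 and NRF2 near their start sites. Nfe2l2, called in 3 comparisons, and Gclm, called in 0, hold an NRF2 word only. Members picked in this way cannot show whether words and responses go together. Nfe2l2 and Txnrd1 also rose with stimulation in vehicle, and their windows held no AP-1 word. Windows of 250 bases before to 50 after a start site, from RefSeq with build GRCm38.p6, matched 7 of the 10 members, in 9 windows. Hmox1, Gclc and Gsr had no window. They were searched on both strands for the antioxidant response element core TGACNNNGC and for the AP-1 site TGANTCA. All matches are in capitals, 5′ to 3′ on the gene's strand.
Srxn1, chr2:152105274-152105573, plus strand: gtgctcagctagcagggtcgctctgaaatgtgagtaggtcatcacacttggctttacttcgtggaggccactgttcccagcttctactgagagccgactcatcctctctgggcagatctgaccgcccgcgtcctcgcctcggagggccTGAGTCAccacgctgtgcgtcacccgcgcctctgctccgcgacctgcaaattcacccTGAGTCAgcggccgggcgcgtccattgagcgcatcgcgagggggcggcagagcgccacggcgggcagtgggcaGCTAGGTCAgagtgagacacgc
Prdx1, chr4:116685349-116685648, plus strand: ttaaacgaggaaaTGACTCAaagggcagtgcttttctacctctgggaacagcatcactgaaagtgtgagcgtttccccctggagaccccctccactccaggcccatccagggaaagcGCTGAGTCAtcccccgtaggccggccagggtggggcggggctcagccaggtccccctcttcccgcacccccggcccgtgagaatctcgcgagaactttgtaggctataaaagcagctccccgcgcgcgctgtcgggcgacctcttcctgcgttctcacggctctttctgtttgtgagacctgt
Nfe2l2, chr2:75704614-75704913, minus strand: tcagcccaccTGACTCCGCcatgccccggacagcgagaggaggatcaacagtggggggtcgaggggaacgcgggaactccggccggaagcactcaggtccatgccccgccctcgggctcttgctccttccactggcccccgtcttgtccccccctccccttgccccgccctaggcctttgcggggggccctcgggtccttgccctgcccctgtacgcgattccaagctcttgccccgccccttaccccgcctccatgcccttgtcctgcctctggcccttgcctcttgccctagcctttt
Gclm, chr3:122245307-122245606, plus strand: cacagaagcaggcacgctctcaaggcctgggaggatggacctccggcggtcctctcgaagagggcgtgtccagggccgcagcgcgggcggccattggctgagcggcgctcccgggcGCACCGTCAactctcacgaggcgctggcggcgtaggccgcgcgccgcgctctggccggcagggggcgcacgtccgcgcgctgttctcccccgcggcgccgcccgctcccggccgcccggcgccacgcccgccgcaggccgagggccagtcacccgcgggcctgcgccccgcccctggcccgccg

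The Srxn1 window held 2 copies of the AP-1 word TGAGTCA, 102 to 96 and 45 to 39 bases before the start site, and the antioxidant word on the other strand, GCTAGGTCA, 29 to 37 bases after it. The Prdx1 window held the AP-1 words TGACTCA, 237 to 231 bases before the start, and TGAGTCA, 131 to 125 before it. The second of these lies inside the antioxidant word GCTGAGTCA, 133 to 125 bases before the start, so these matches overlap. In the Nfe2l2 window the antioxidant word TGACTCCGC lay 240 to 232 bases before the start, and in the Gclm window GCACCGTCA lay 134 to 126 bases before it. One of the Txnrd1 windows also held such a word. Of the 7 members with a window, 5 thus had an antioxidant word and 2 an AP-1 word. Of all 32851 promoter windows, 12.4% and 7.81% held them, 1.17% held both and 0.460% held at least 2 AP-1 words. These shares count single windows, while Txnrd1 had more than 1. The members were also listed as NRF2 readouts, so the numbers are not like for like. A match is only a match of letters in these windows and says nothing of binding.

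The factor's own gene, Nfe2l2 (chromosome 2, 75675513 to 75704641, minus strand, GRCm38), had more transcript wherever Compound 10 was present. Its level was 38.2 and 43.9 CPM in the unstimulated vehicle libraries and 98.5 and 80.8 in the unstimulated Compound 10 libraries. It was 59.7 and 72.7 CPM in the stimulated vehicle libraries and 90.1, 92.1 and 111 in the stimulated Compound 10 libraries. Every Compound 10 library was above every vehicle library of its state, and in vehicle both stimulated libraries were above both unstimulated ones. Compound 10 raised it by 1.13 (SE 0.20; adjusted p = 0.00632 in edgeR) in unstimulated cells and by 0.56 (SE 0.18; adjusted p = 0.0396 in edgeR) in stimulated cells. Stimulation raised it by 0.69 (SE 0.19; adjusted p = 0.0197) in vehicle, while under Compound 10 the change was 0.12 (SE 0.18; adjusted p = 0.679) and the groups overlapped. The difference between the Compound 10 effects in the 2 states was -0.57 (SE 0.26; adjusted p = 0.345), which does not pass.

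The Nfe2l2 calls rest on few libraries. In stimulated cells the effect was 0.43 to 0.70 with 1 library left out, and stayed at 0.56 without any 1 unstimulated library. There the call was lost whenever any library other than Compound 10 replicate 2 was left out. Without Compound 10 replicate 1 or 3 the call had an edgeR adjusted p of 0.0512 or 0.135. In unstimulated cells it was lost without vehicle replicate 1 (0.0717) or Compound 10 replicate 1 (0.0772). The rise with stimulation in vehicle was lost without unstimulated replicate 1 (0.140) or 2 (0.0550) or stimulated replicate 2 (0.124). Over all 20 alternatives the adjusted p ranged from 0.0201 to 0.259, from 1.65e-05 to 0.0772 and from 0.00578 to 0.364 for these calls in that order. Over 98% of the Nfe2l2 counts in each library came from its 1 protein-coding transcript in the tables.

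Gclc in stimulated cells was, with Srxn1, a member whose Compound 10 call held under every alternative. Gclc (chromosome 9, 77754535 to 77794485, plus strand) encodes the catalytic subunit of glutamate-cysteine ligase, the rate-limiting enzyme of the pathway. Its level was 55.3 and 50.01 CPM in unstimulated vehicle libraries and 28.4 and 25.8 in unstimulated Compound 10 libraries. After stimulation it was 68.7 and 55.3 CPM in vehicle and 23.1, 27.2 and 28.1 with Compound 10. All 5 Compound 10 libraries were below all 4 vehicle libraries, whichever the state. The fall was 1.25 on the log2 scale in stimulated cells, from a mean of 62.0 ± 9.47 CPM (SD, n = 2) to 26.1 ± 2.67 (SD, n = 3), with SE 0.17 and an adjusted p of 0.000366 in edgeR. It was 0.96 in unstimulated cells, from 52.7 ± 3.75 to 27.1 ± 1.83 CPM, with SE 0.19 and an edgeR adjusted p of 0.0119. The 2 effects differed by -0.29 (SE 0.25; adjusted p = 0.681), which does not pass. Stimulation gave 0.24 (SE 0.19; adjusted p = 0.388) in vehicle and -0.05 (SE 0.17; adjusted p = 0.872) under Compound 10, and neither was called.

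In stimulated cells the adjusted p of Gclc was at most 0.0196 under all 20 alternatives. In unstimulated cells it ranged from 0.000655 to 0.200 and was lost when any 1 of the 4 unstimulated libraries was left out: 0.0827 without vehicle replicate 1, 0.0513 without vehicle replicate 2, 0.0822 without Compound 10 replicate 1 and 0.106 without Compound 10 replicate 2. The tables hold 1 Gclc transcript.

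The modifier subunit of the same enzyme, encoded by Gclm (chromosome 3, 122245557 to 122270732, plus strand), lowers the amounts of substrate that the catalytic subunit needs. Gclm was at 34.2 and 30.8 CPM in unstimulated vehicle libraries, 29.9 and 32.1 in unstimulated Compound 10 libraries, 35.4 and 31.1 in stimulated vehicle libraries and 27.3, 24.5 and 31.8 in stimulated Compound 10 libraries. The groups overlapped in every comparison. Compound 10 gave -0.25 (SE 0.17; adjusted p = 0.335) in stimulated and -0.07 (SE 0.19; adjusted p = 0.879) in unstimulated cells. Stimulation gave 0.03 (SE 0.19; adjusted p = 0.929) in vehicle and -0.16 (SE 0.17; adjusted p = 0.587) under Compound 10. A short transcript that holds 1.85% to 7.45% of the Gclm counts shares 297 bases with a gene on the opposite strand, Gm17494 (up to 35.4 CPM). It is also 97.9% identical to Ppia over 287 bases and 100% to Gm10123 over 244 bases, which reached 2931 and 599 CPM, so that share is uncertain.

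The levels of the subunits can be set side by side per length, in the deposited TPM (transcripts scaled by length to a fixed total). The ratio of Gclc to Gclm TPM was 0.519 and 0.472 in unstimulated vehicle libraries and 0.603 and 0.539 in stimulated vehicle libraries. It was 0.285 and 0.241 in unstimulated Compound 10 libraries and 0.257, 0.309 and 0.258 in stimulated Compound 10 libraries. The 5 Compound 10 libraries were all below the 4 vehicle libraries. The ratio was chosen after the values were seen and has no test. In unstimulated vehicle libraries the coding transcripts Gclm-203 and Gclm-206 had means of 14.4 and 14.6 TPM. Gclm-201 had 1.39 TPM there, with 18.9% to 25.1% of the Gclm counts. The Gclm TPM, and so the height of the ratio, thus depend on how reads were divided between its transcripts.

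**Figure D2:**
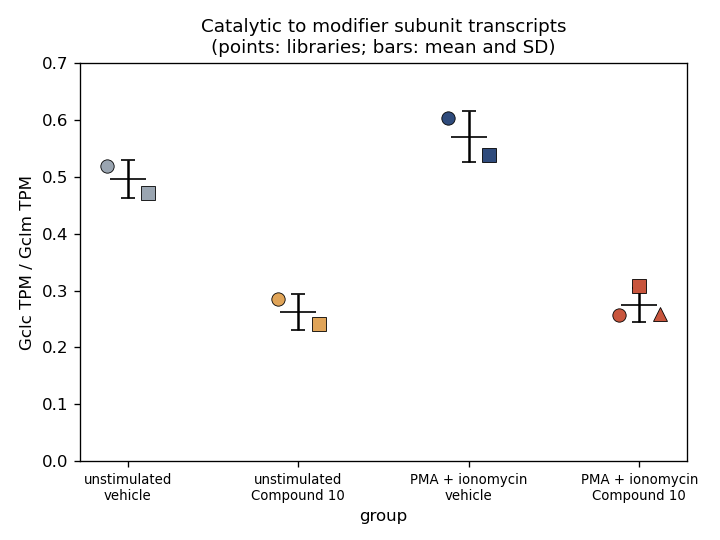
Ratio of Gclc TPM to Gclm TPM (linear axis from 0) in each library by group; points are libraries and bars mean and SD. The means are 0.496 and 0.571 in the unstimulated and stimulated vehicle groups and 0.263 and 0.274 in the corresponding Compound 10 groups.

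Cystine import was read at the lower limit of the data. Slc7a11 (chromosome 3, 49892526 to 50443614, minus strand) encodes the light chain of the cystine-glutamate exchanger, and was at 1.80 and 2.77 CPM in unstimulated vehicle libraries, 1.62 and 2.55 in unstimulated Compound 10 libraries, 2.45 and 2.76 in stimulated vehicle libraries and 1.76, 2.21 and 2.18 in stimulated Compound 10 libraries. No comparison called it. Its protein-coding transcripts held only 0% to 32.2% of these counts, at most 8.43 counts in a library, and a transcript with a retained intron held 63.0% to 95.3%, so these levels say little of the coding messenger. Part of a coding transcript is also 96.2% identical to Tuba1b over 373 bases. Slc3a2, the heavy chain that carries the exchanger to the surface together with other transporters, was far more abundant, with a mean of 572 ± 87.7 CPM (SD, n = 2) in stimulated vehicle and 824 ± 37.4 (SD, n = 3) in stimulated Compound 10 libraries. Its Compound 10 effect there was 0.53 (SE 0.20; adjusted p = 0.0761 in edgeR), within 0.0311 to 0.382 over the alternatives, and stimulation in vehicle raised it by 0.97 (SE 0.22; adjusted p = 0.00556), a call lost without unstimulated vehicle replicate 2 (0.0629), within 2.63e-05 to 0.164 over the alternatives.

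The reductases that recycle the thiol carriers went opposite ways with stimulation in vehicle. Gsr (chromosome 8, 33652523 to 33698163, plus strand), glutathione reductase, was at 22.5 and 21.6 CPM in unstimulated vehicle libraries and 14.5 and 13.2 in stimulated vehicle libraries. With Compound 10 it was at 17.2 and 14.003 CPM without stimulation and at 13.5, 11.99 and 13.1 with it. The vehicle groups did not overlap, and the unstimulated vehicle pair was the highest of all. Stimulation lowered Gsr in vehicle by 0.67 on the log2 scale (a change of -0.67, SE 0.20; adjusted p = 0.0265 in edgeR). This call was lost when any 1 of those 4 libraries was left out (0.111 and 0.0962 without unstimulated replicate 1 or 2, 0.0671 and 0.127 without stimulated replicate 1 or 2), within 0.00830 to 0.221 over the alternatives. Compound 10 gave -0.50 (SE 0.20; adjusted p = 0.160) in unstimulated cells, where its groups did not overlap, and -0.11 (SE 0.19; adjusted p = 0.731) in stimulated cells. Under Compound 10, stimulation gave -0.28 (SE 0.18; adjusted p = 0.326).

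Txnrd1 (chromosome 10, 82833951 to 82897712, plus strand), the cytosolic thioredoxin reductase, varied widely between libraries of 1 group. It was at 40.6 and 46.8 CPM in unstimulated vehicle libraries and 99.3 and 62.9 in unstimulated Compound 10 libraries. With stimulation it was at 105 and 135 CPM in vehicle and 225, 83.3 and 188 with Compound 10. Both unstimulated Compound 10 libraries were above both vehicle libraries, and in stimulated cells Compound 10 replicate 2 lay below both vehicle libraries while the other 2 lay above them. Stimulation in vehicle raised it by 1.46 (SE 0.42; adjusted p = 0.0309 in edgeR), a call lost without any 1 of those 4 libraries (0.160 and 0.114 without unstimulated replicate 1 or 2, 0.0725 and 0.143 without stimulated replicate 1 or 2), within 1.32e-08 to 0.267 over the alternatives. Compound 10 gave 0.89 (SE 0.42; adjusted p = 0.251) in unstimulated and 0.46 (SE 0.38; adjusted p = 0.454) in stimulated cells, and stimulation under Compound 10 gave 1.03 (SE 0.39; adjusted p = 0.0954).

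Whether Txnrd1 passed depended on the setting. Without replicate 2 of the stimulated Compound 10 group, the Compound 10 effect was 0.75 (SE 0.23; adjusted p = 0.0361 in edgeR) in stimulated cells, within 0.0361 to 0.804 over the alternatives. In unstimulated cells it was then 0.91 (SE 0.23; adjusted p = 0.0303), within 0.00383 to 0.683. Stimulation under Compound 10 gave 1.36 (SE 0.23; adjusted p = 0.00177), within 7.90e-05 to 0.405. With that library kept, Txnrd1 also passed with no filter on low counts, for Compound 10 in unstimulated cells (0.00383) and for stimulation under Compound 10 (7.90e-05), and for the latter in DESeq2 (0.0104). The unstimulated value depends on that library because all 9 libraries share 1 estimate of the spread.

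Srxn1 (chromosome 2, 152105516 to 152111376, plus strand) encodes sulfiredoxin, which reduces overoxidized peroxiredoxins back to their active form. Its changes with stimulation, and with Compound 10 in stimulated cells, were the largest of the called members. It was at 2.23 and 1.10 CPM in unstimulated vehicle libraries and at 1.10 and 1.44 in unstimulated Compound 10 libraries, from 17 to 31 counts a library. After stimulation it reached 76.9 and 45.4 CPM in vehicle (1472 and 758 counts) and 19.6, 15.5 and 14.3 with Compound 10 (245, 238 and 164 counts). All stimulated libraries were above all unstimulated ones, and the 3 stimulated Compound 10 libraries were below both vehicle libraries of that state. In vehicle, stimulation raised Srxn1 36.9-fold, or by 5.21 on the log2 scale (SE 0.38; adjusted p = 2.31e-06 in edgeR). Under Compound 10 it raised Srxn1 12.8-fold, a log2 change of 3.68 (SE 0.36; adjusted p = 2.66e-05). In stimulated cells the level with Compound 10 was 3.71-fold lower, a log2 change of -1.89 (SE 0.27; adjusted p = 0.000509). These 3 calls held under all 20 alternatives, with adjusted p of at most 0.00018, 0.00101 and 0.0155.

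In unstimulated cells Compound 10 gave Srxn1 a change of -0.36 (SE 0.42; adjusted p = 0.666), and the groups overlapped at these low counts. The difference between the Compound 10 effects in stimulated and unstimulated cells was -1.53 (SE 0.50; unadjusted p = 0.0104), with an edgeR adjusted p of 0.176 over all tested genes, within 0.0147 to 0.524 over the alternatives. The value of 0.0147 came from testing with no filter on low counts. No member was called for this interaction, where 1.03% of all tested genes were called, 0.421% higher and 0.607% lower. Srxn1 was the 1 member with an unadjusted p under 0.05, and DESeq2 called 0 members.

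Prdx1 (chromosome 4, 116685544 to 116700822, plus strand), an abundant cytosolic peroxiredoxin that is a substrate of sulfiredoxin, was the most abundant member in every group. Its level was 1244 and 981 CPM in unstimulated vehicle libraries and 1057 and 1015 in unstimulated Compound 10 libraries. It was 2543 and 1917 CPM in stimulated vehicle libraries and 1586, 2252 and 1776 in stimulated Compound 10 libraries. All 5 stimulated libraries were above all 4 unstimulated ones, while vehicle and Compound 10 overlapped in both states. Stimulation raised Prdx1 by 1.00 (SE 0.25; adjusted p = 0.0105 in edgeR) in vehicle and by 0.85 (SE 0.23; adjusted p = 0.0208) under Compound 10. Compound 10 gave -0.25 (SE 0.23; adjusted p = 0.481) in stimulated and -0.10 (SE 0.25; adjusted p = 0.857) in unstimulated cells.

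The rise of Prdx1 in vehicle was lost without unstimulated vehicle replicate 2 (0.0872) or stimulated vehicle replicate 1 (0.0832), within 0.000111 to 0.127 over the alternatives. The rise under Compound 10 was lost without unstimulated Compound 10 replicate 1 (0.118) or 2 (0.148), within 0.000674 to 0.357. All 6 Prdx1 transcripts in the tables have near-identical processed copies, among them Gm21399 at 98.3% and Gm7204 at 97.5% identity over 597 bases. Those 2 copies were assigned at most 0.540 and 0.611 CPM, and how the reads divide between them and Prdx1 is uncertain.

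Hmox1 (chromosome 8, 75093621 to 75100589, plus strand) encodes heme oxygenase 1, which opens the heme ring and releases iron, and is held down by BACH1. It was at 3.82 and 3.48 CPM in unstimulated vehicle libraries and at 3.51 and 3.21 in unstimulated Compound 10 libraries. It was at 23.1 and 17.0 CPM in stimulated vehicle libraries and at 14.5, 6.51 and 8.12 in stimulated Compound 10 libraries. The 3 stimulated Compound 10 libraries lay between the unstimulated libraries and the stimulated vehicle libraries, with no overlap on either side. In vehicle, stimulation raised Hmox1 by 2.46 on the log2 scale (SE 0.36; adjusted p = 0.000353 in edgeR), and by 1.53 (SE 0.34; adjusted p = 0.00652) under Compound 10. Compound 10 gave -1.05 (SE 0.30; adjusted p = 0.0241) in stimulated cells and -0.12 (SE 0.37; adjusted p = 0.888) in unstimulated cells. The difference between these was -0.93 (SE 0.48; adjusted p = 0.403), which does not pass.

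The rise of Hmox1 in vehicle held under all 20 alternatives, with an adjusted p of at most 0.0184. Its lower level with Compound 10 did not: the adjusted p was 0.189 without stimulated vehicle replicate 1 and 0.0889 without Compound 10 replicate 3, within 0.00118 to 0.189. The rise under Compound 10 was lost without unstimulated Compound 10 replicate 2 (0.0668), within 1.40e-05 to 0.0856. Heme oxygenase is also a gene of macrophages and of red cell turnover. The 8 erythroid and platelet markers summed to 21.0 to 23.7 CPM in replicate 1 of the 2 vehicle groups and of the stimulated Compound 10 group and to 1.63 to 4.80 in the other libraries. Replicate 1 was also the highest in Hmox1 in each of these 3 groups, as it was in the unstimulated Compound 10 group, where those markers were low. Of the 4 tested monocyte, macrophage and dendritic cell markers, 1 was called higher with stimulation in vehicle and 1 under Compound 10, and the sum of all 12 was 3.94 to 8.35 CPM in unstimulated vehicle libraries, 5.87 to 8.83 in unstimulated Compound 10 libraries, 8.39 to 8.88 in stimulated vehicle libraries and 8.29 to 8.89 in stimulated Compound 10 libraries. The part of either in the Hmox1 values was not tested.

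Nqo1 (chromosome 8, 107388225 to 107403206, minus strand), a quinone reductase and the most used NRF2 readout in many tissues, was hardly detected. It had 3 and 11 counts in unstimulated vehicle libraries, 10 and 5 in unstimulated Compound 10 libraries, 31 and 3 in stimulated vehicle libraries and 12, 5 and 4 in stimulated Compound 10 libraries, which is 0.180 to 1.62 CPM. No comparison called it, and a difference was not detectable at this depth. Its highest and lowest CPM were both in the stimulated vehicle group.

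Set side by side per length, Prdx1 led in each group, with a mean of 1245 TPM in vehicle and 1190 with Compound 10 before stimulation, and of 2060 and 1655 TPM after it. Next came Gclm in unstimulated vehicle (33.0 ± 9.29 TPM, SD, n = 2), where Nfe2l2, Gclc and Txnrd1 followed at 17.9, 16.5 and 13.4 TPM with overlapping libraries. In unstimulated Compound 10 libraries Nfe2l2 was second, at 39.6 ± 2.19 TPM (SD, n = 2), above every Gclm value. In stimulated vehicle libraries the order below Prdx1 was Txnrd1, Gclm, Nfe2l2, Srxn1, Gclc and Hmox1, from 30.0 down to 11.5 TPM, and each overlapped its neighbour. With Compound 10 the last 3 of these lay apart from the rest: Gclc, Hmox1 and Srxn1 were at 6.28, 5.96 and 5.17 TPM, overlapping each other, below Gclm at 22.8. Nqo1 was last in all 4 groups, from 0.307 to 0.546 TPM. The places of Gclm depend on how reads were divided between its transcripts, as given above.

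**Figure D3:**
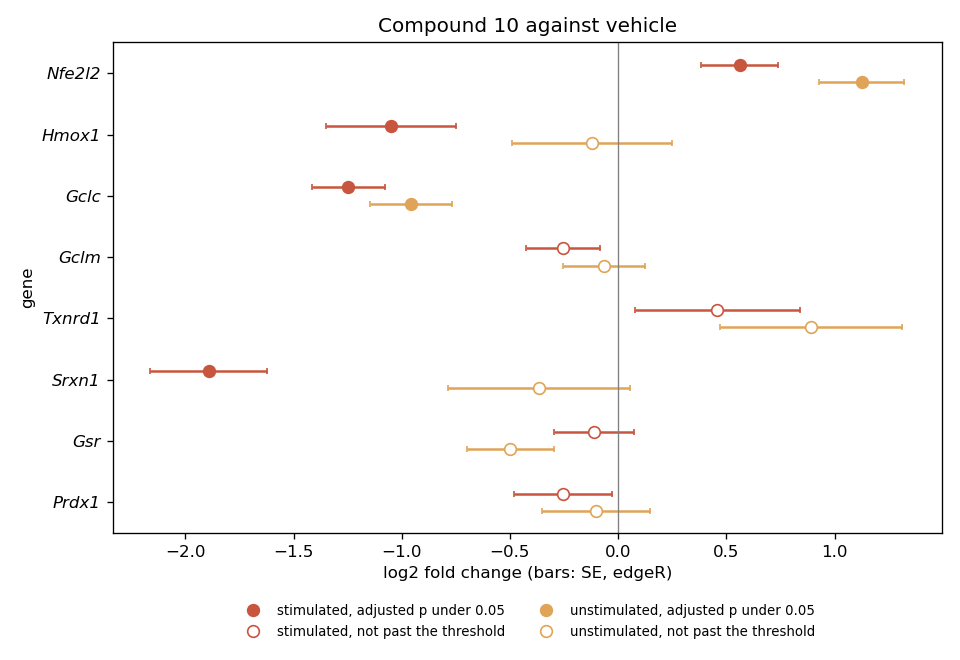
Log2 fold change of Compound 10 against vehicle for 8 of the genes in stimulated and unstimulated cells, with bars of 1 SE; filled points have an adjusted p under 0.05. Gclc is at -1.25 and -0.96 and Nfe2l2 at 0.56 and 1.13 in stimulated and unstimulated cells, while Srxn1 is at -1.89 and -0.36.

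**Figure D4:**
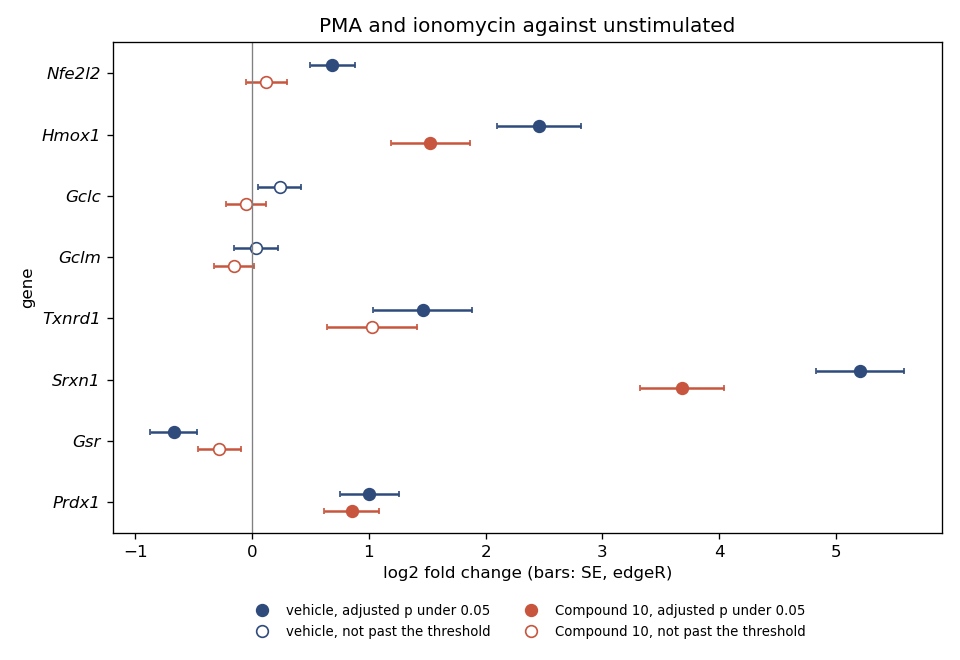
Log2 fold change of PMA and ionomycin against no stimulus for the same 8 genes in vehicle and under Compound 10, with bars of 1 SE; filled points have an adjusted p under 0.05. Srxn1 is at 5.21 and 3.68, Hmox1 at 2.46 and 1.53, and Gclc at 0.24 and -0.05.

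The libraries of the groups compared did not overlap for 5 of the 10 genes with Compound 10 in stimulated cells (47.3% of all tested genes), the fifth being Slc7a11 at the low levels given above. They did not overlap for 4 in unstimulated cells (55.5% of all tested genes), for 6 with stimulation in vehicle (63.4%) and for 4 with stimulation under Compound 10 (49.6%). Read against the shares of all tested genes, these counts are no result about the members.

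The regulators around NRF2 were read in a list of 14 genes, all tested. With Compound 10 in stimulated cells, 2 were higher (Maff and Keap1) and 2 lower (Rbx1 and Fbxw11), in edgeR and in DESeq2, with a median change of -0.12 beside 0.00 over all tested genes. That is 4 of 14, where 11.7% of all tested genes were higher and 11.4% lower. Fbxw11 was at 139 and 153 CPM in vehicle and at 85.3, 35.6 and 82.3 with Compound 10. Its change was -1.11 (SE 0.34; adjusted p = 0.0435 in edgeR), and -1.17 or -1.04 without stimulated vehicle replicate 1 or 2. This call was lost without stimulated Compound 10 replicate 3 (0.0501), with upper-quartile scaling (0.0559) and by limma on log2(TPM + 1) (0.0713), among others. Rbx1, the RING subunit of the ligase that KEAP1 serves and of other cullin ligases, was at 82.2 and 72.5 CPM in vehicle and at 24.4, 30.6 and 24.1 with Compound 10. That was a change of -1.55 (SE 0.17; adjusted p = 0.000109 in edgeR), and it held under all 20 alternatives, with an adjusted p of at most 0.00859. Keap1 was at 6.74 and 5.22 CPM in vehicle and at 9.94, 11.7 and 10.6 with Compound 10, a change of 0.84 (SE 0.20; adjusted p = 0.00932). Maff, a small MAF partner, rose by 0.90 (SE 0.19; adjusted p = 0.00499). Both calls were lost without stimulated vehicle replicate 2 (0.0915 for Keap1 and 0.0605 for Maff), within 0.00434 to 0.418 and 0.000391 to 0.120 over the alternatives. The repressor Bach1 was at 33.4 and 31.9 CPM in vehicle and at 24.3, 30.1 and 31.1 with Compound 10, a change of -0.20 (SE 0.19; adjusted p = 0.529), which does not pass although every Compound 10 library was below both vehicle libraries.

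In unstimulated cells 1 of the 14 was called with Compound 10, where 7.36% of all tested genes were. This was the small MAF gene Mafg, at 1.13 (SE 0.20, adjusted p = 0.00632 in edgeR). It was lost without unstimulated vehicle replicate 1 (0.0767) or Compound 10 replicate 1 (0.0640), within 8.80e-05 to 0.0767. Stimulation in vehicle raised 5 of the 14 and lowered 1, where 14.4% of all tested genes were higher and 13.8% lower. Maff rose by 3.64 (SE 0.24; adjusted p = 9.44e-07), Bach1 by 1.89 (SE 0.23; adjusted p = 7.99e-05), and Keap1 was the one that fell, by 1.81 on the log2 scale (SE 0.22; adjusted p = 7.93e-05). These 3 held under all 20 alternatives. So in vehicle the transcripts of the repressor Bach1 and of its target Hmox1 were both higher after stimulation.

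Of 22 other NRF2 targets, 19 were tested, and 0 were higher and 3 lower with Compound 10 in stimulated cells in edgeR, with a median of 0.24 beside 0.00, where 11.7% of all tested genes were higher and 11.4% lower. DESeq2 called 1 higher and 3 lower, and 5 of the 19 had an unadjusted p under 0.05. Ugdh, which makes UDP-glucuronate for conjugation, was at 49.3 and 42.6 CPM in vehicle and at 16.0, 15.3 and 20.3 with Compound 10, a change of -1.42 (SE 0.20; adjusted p = 0.000411 in edgeR) that held under all 20 alternatives. G6pdx, the entry enzyme of the pentose phosphate pathway that supplies NADPH, changed by -0.69 (SE 0.16; adjusted p = 0.00895), lost without stimulated vehicle replicate 1 (0.0826), within 0.00159 to 0.117. The third was Abcc1, an exporter of glutathione conjugates, at -0.72 (SE 0.24, adjusted p = 0.0445 in edgeR). This call was lost when any 1 library was left out, although the effect stayed at -0.72 without any 1 unstimulated library. In unstimulated cells Gsta4 was higher, at 1.24 (SE 0.26; adjusted p = 0.0166), and Ugdh lower, at -0.93 (SE 0.22; adjusted p = 0.0272), and both were lost when any 1 of the 4 unstimulated libraries was left out (0.0619 to 0.141 for Gsta4 and 0.0520 to 0.193 for Ugdh). Of all tested genes, 4.45% were higher and 2.91% lower with Compound 10 in unstimulated cells. Stimulation in vehicle raised 6 of the 19 and lowered 2, where 14.4% of all tested genes were higher and 13.8% lower.

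In the glutathione system, 17 of 19 genes were tested, and 3 were higher and 1 lower with Compound 10 in stimulated cells, with a median of 0.34 beside 0.00, where 11.7% of all tested genes were higher and 11.4% lower. DESeq2 called 5 higher and 1 lower. The glutathione peroxidases Gpx1 and Gpx4 rose by 0.85 (SE 0.20; adjusted p = 0.00937 in edgeR) and 0.78 (SE 0.18; adjusted p = 0.00753). Both were lost without stimulated vehicle replicate 2 (0.0918 and 0.0839), within 0.000244 to 0.129 and 0.000628 to 0.155. Glrx, a glutathione-dependent disulfide reductase, fell by 0.81 on the log2 scale (SE 0.18; adjusted p = 0.00584), lost without stimulated vehicle replicate 1 (0.0641), within 0.000604 to 0.0641. The 3 with the lowest p thus held 2 peroxidases that were higher and a reductase that was lower. Hagh was the other gene called higher, at 90.1 and 73.2 CPM in vehicle and at 100, 139 and 127 with Compound 10. Its call was lost with DESeq2 size factors in edgeR (0.0527) and without Compound 10 replicate 2 (0.0924) or 3 (0.113), among others. Over the alternatives its adjusted p was within 0.0210 to 0.353. In unstimulated cells edgeR called 0 of the 17 and DESeq2 1, with 5 at an unadjusted p under 0.05. Of all tested genes edgeR called 7.36% there. Stimulation in vehicle raised 4 and lowered 4, where 14.4% of all tested genes were higher and 13.8% lower.

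In the thioredoxin, peroxiredoxin and superoxide list, all 15 genes were tested, and 5 were higher and 1 lower with Compound 10 in stimulated cells in edgeR and in DESeq2, with a median of 0.35 beside 0.00, where 11.7% of all tested genes were higher and 11.4% lower. Sesn1, a sestrin that restrains growth signalling, was at 22.2 and 18.5 CPM in vehicle and at 58.3, 46.2 and 49.1 with Compound 10, a change of 1.33 (SE 0.18; adjusted p = 0.000408 in edgeR) that held under all 20 alternatives. Catalase (Cat) rose by 0.80 (SE 0.16; adjusted p = 0.00372), called in every fit that left out 1 library but lost by limma on log2(TPM + 1) (0.126) and log2(TPM + 0.1) (0.116), within 0.000213 to 0.126. Txnip, which binds and inhibits thioredoxin, was at 17.4 and 18.2 CPM in vehicle and at 49.8, 24.8 and 41.6 with Compound 10, a change of 1.12 (SE 0.30; adjusted p = 0.0203). It was lost without stimulated vehicle replicate 1 (0.124) or 2 (0.117) or Compound 10 replicate 1 (0.0558) or 3 (0.0586), within 3.18e-05 to 0.150. Prdx6 was also called higher, at 667 and 436 CPM in vehicle and at 894, 997 and 1021 with Compound 10. That call was lost without Compound 10 replicate 3 (0.0738) and by limma on log2(TPM + 1) (0.167), among others. Thioredoxin itself, Txn1, gave -0.33 (SE 0.16; adjusted p = 0.159). In unstimulated cells edgeR and DESeq2 called 0 of the 15, with 5 at an unadjusted p under 0.05. Of all tested genes edgeR called 7.36% there. Stimulation in vehicle raised 3 and lowered 4, where 14.4% of all tested genes were higher and 13.8% lower. Txnip fell by 3.56 on the log2 scale (SE 0.35, adjusted p = 3.02e-05 in edgeR) and Txn1 rose by 0.94 (SE 0.18, adjusted p = 0.00181).

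In heme and iron handling, 12 of 13 genes were tested, and 1 was lower with Compound 10 in stimulated cells in edgeR and in DESeq2, with a median of -0.07 beside 0.00, where 11.4% of all tested genes were lower. It was Alas1, the first enzyme of heme synthesis, at -0.83 (SE 0.19; adjusted p = 0.00722 in edgeR), lost without stimulated vehicle replicate 1 (0.0835), within 0.00223 to 0.0910. Hmox1 and Alas1, which degrade and make heme, were thus both lower. Stimulation in vehicle raised 1 and lowered 2, where 14.4% of all tested genes were higher and 13.8% lower. The 1 raised was the transferrin receptor gene Tfrc, by 3.87 (SE 0.43, adjusted p = 0.000118 in edgeR). In unstimulated cells edgeR and DESeq2 called 0 of the 12 with Compound 10, with 0 at an unadjusted p under 0.05. Of all tested genes edgeR called 7.36% there. For the interaction edgeR called 0 genes of each of the 5 lists, and DESeq2 called 1 regulator lower and 1 gene of the thioredoxin list higher, while 1 to 6 genes of each list had an unadjusted p under 0.05.

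**Figure D5:**
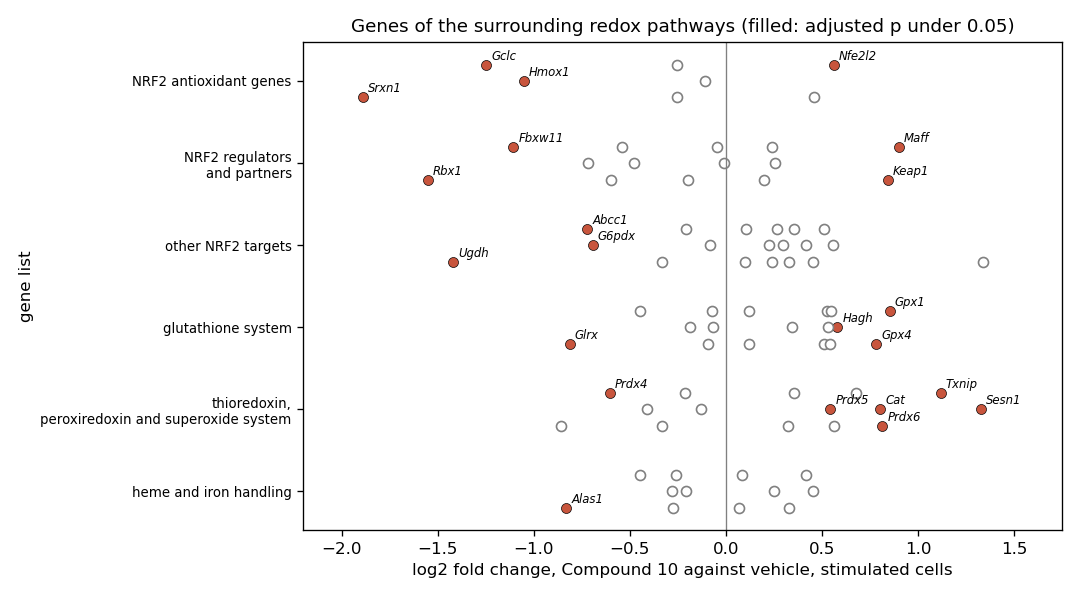
Log2 fold change of Compound 10 against vehicle in stimulated cells for the genes of the 5 surrounding lists and for 8 of the members (1 point a gene; filled where the adjusted p is under 0.05). Outside the members, Rbx1 at -1.55 and Ugdh at -1.42 lie furthest down, and Sesn1 at 1.33 is the highest filled point.

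Among the 4735 other genes that averaged 4 or more in log2 CPM, those whose log2 CPM followed Nfe2l2 most closely over the 9 libraries were Paip2b (Pearson r = 0.965), Mex3b (0.960) and Sc5d (0.959). Those closest to Gclc were Aar2 (0.992), Ugdh (0.978) and Psmc2 (0.977). These are descriptions over 9 libraries that share their groups, scaling and depth, and they carry no p.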

How the data were processed

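RNA of 9 libraries of mouse splenic CD4+ T cells was extracted with Qiagen kits and made into libraries by Clontech SMART-seq, per the labels' protocols. Per the submitters' processing notes, cutadapt and kallisto were used with mm10. Which versions, and which annotation, is not given in the sources used here. Estimated counts were deposited per transcript, not scaled between libraries, per the file headers. The same tables hold the TPM that the authors deposited, which divide by effective length and have a set total, per the file headers. Kallisto divides reads between similar transcripts by a model, so genes with near-identical copies are less certain.

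Of 109617 transcripts in each table, 108214 matched GENCODE M21 (GRCm38) by identifier without version and 63964 with it, and the unmatched ones took 0.542% to 0.829% of counts. A gene's estimated counts are the rounded sum of those of its transcripts. Gene coordinates are those of GENCODE M21. Genes passed edgeR's filterByExpr by group, libraries were scaled by TMM, and the 9 libraries were fitted together with 1 term per group (groups from the titles) by edgeR 4.0.16 in R 4.3.3 (glmQLFit, robust, glmQLFTest, 2-sided). SE is the absolute log2 fold change over the square root of F, and the biological coefficient of variation was 0.244.

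Alternatives were DESeq2 1.42.0, limma 3.58.1 on log2(TPM + 1) and log2(TPM + 0.1), other scalings and filters, and an effective length offset. A replicate block was fitted without stimulated Compound 10 replicate 3. Further fits were made without single libraries, without the vehicle library richest in rRNA of each state, or without rRNA genes before scaling. The member genes and the gene lists were chosen with earlier results of these data known, so a count over them is a description. Named list genes were at most 4 per list with the smallest p among those called in a comparison, beside Keap1, Bach1, Txn1, Txnip and Slc3a2, which were named whatever their values. Gstm1 was left out because similar genes could share its reads, which was not checked. It was called higher with stimulation in vehicle (1.02, adjusted p = 0.00968 in edgeR). With Compound 10 it gave 0.56 (adjusted p = 0.0980) in stimulated and 0.86 (adjusted p = 0.0589) in unstimulated cells, not called. Near-identical copies were sought for the members only, at 95% identity over 100 bases.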

Additional observations from a re-analysis of the deposited data

How the results depend on the processing

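Of 15 calls of the 10 genes, 5 held under all 20 alternatives: Gclc and Srxn1 with Compound 10 in stimulated cells, Hmox1 and Srxn1 with stimulation in vehicle, and Srxn1 with stimulation under Compound 10. With 2 or 3 libraries a group the precision is low. The median change of all genes on the log2(TPM + 1) scale was -0.17 for stimulation in vehicle and -0.21 under Compound 10; other comparisons were within 0.06 of 0.

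With Compound 10 in stimulated cells, 3234 genes were called, 1195 by limma on log2(TPM + 1), 1263 on log2(TPM + 0.1) and 1827 without the rRNA-rich vehicle libraries, and the members called fell from 4 to 2, 2 and 2. In unstimulated cells 1031 were called, 1569 with no filter, 231 and 177 on the TPM scales and 295 without the rRNA-rich libraries, with 2 members, and 0 and 0 on the TPM scales. For stimulation in vehicle 3940 were called, 2541 on log2(TPM + 0.1) and 1597 without the rRNA-rich libraries, with 6 members, then 3 and 3 on the TPM scales and 2 without those libraries. For stimulation under Compound 10 the members called fell from 3 to 1 and 1 on the TPM scales. The interaction had 144 calls, then 512 with no filter, 239 with a stricter filter, 454 in DESeq2, 22 and 17 on the TPM scales, 87 with the length offset, 43 with the block and 13 without the rRNA-rich libraries; 1 member, Srxn1, was called with no filter. Leaving out each library gave 1973 to 3167, 174 to 1457, 2425 to 4347, 1506 to 3085 and 29 to 264 genes, and 2 to 5, 0 to 3, 2 to 6, 1 to 4 and 0 to 0 members, in the order of these comparisons. The cause of these moves was not tested.

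Changes that were not called turned sign in places. Prdx1 with Compound 10 in unstimulated cells became 7.06e-05 and 0.000121 on the TPM scales and 0.073 without unstimulated vehicle replicate 1. Gclc with stimulation in vehicle became -0.054 and -0.055 on the TPM scales. Gclm with stimulation in vehicle became -0.035 with upper-quartile scaling, -0.020 with the stricter filter, -0.25 and -0.26 on the TPM scales, -0.017 with the length offset, and -0.036 and -0.069 without unstimulated replicate 2 or stimulated replicate 1, beside 0.13 without stimulated replicate 2. Nfe2l2 with stimulation under Compound 10 became -0.24 and -0.24 on the TPM scales and -0.016 without unstimulated Compound 10 replicate 2, beside 0.28 without replicate 1. Without unstimulated vehicle replicate 1, Gclm and Srxn1 with Compound 10 in unstimulated cells became 0.0053 and 0.21, and without replicate 2 they were -0.13 and -0.79. Gclc with stimulation under Compound 10 became 0.022 and 0.030 without unstimulated or stimulated Compound 10 replicate 1, beside -0.12 without unstimulated replicate 2.

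Replicate numbers were not stated to pair samples. Deviations of same-numbered libraries from their group means correlated at -0.10 (the unstimulated groups) to 0.33 (the vehicle groups). In a group of 2 libraries the deviations mirror each other, so some of the 12 correlations repeat a value and they are not separate. They cannot decide whether the numbers pair samples, so the block was run as an alternative only. The block fit also left out stimulated Compound 10 replicate 3, whose number the other groups lack. In that fit Nfe2l2 with Compound 10 in stimulated cells had an edgeR adjusted p of 0.121 and Prdx1 with stimulation under Compound 10 of 0.0540. Among the list genes with Compound 10 in stimulated cells, the calls of Txnip (0.0574), Abcc1 (0.0920) and Hagh (0.116) were lost too. Of the named genes no other call was lost. Without that library and with no block, the edgeR adjusted p was 0.135 for Nfe2l2, 0.0586 for Txnip, 0.093 for Abcc1 and 0.113 for Hagh. For these genes the block and the missing library cannot be told apart.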
